A study of Mus musculus with 26 samples.

Results

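The *Wfdc* genes encode proteins with WAP four-disulfide core domains, and 10 of them were followed among the 23337 genes of the count tables. They are *Wfdc1*, *Wfdc2*, *Wfdc3*, *Wfdc6b*, *Wfdc8*, *Wfdc9*, *Wfdc10*, *Wfdc13*, *Wfdc15b* and *Wfdc16*, and they were taken by symbol, with no threshold on their values. RNA-seq libraries came from the epididymis, where the initial segment (IS) and the caput came from 5 ArKI and 5 wild-type (WT) mice, and from the testis, with 3 mice of either genotype. The study asked how the ArKI genotype alters gene expression in these tissues. All mice were males of 3 months on a C57Bl/6N; 129 hybrid background. ArKI mice carry a germline knockin allele, so its effects on the epididymal epithelium, on other epididymal cells and on cells upstream in the testis cannot be told apart.

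The WAP domain is a small fold held by disulfide bonds, and several of the proteins that carry it, such as SLPI and elafin, inhibit serine proteases or act against bacteria. Most genes of the family lie in a cluster that is active in the male reproductive tract, where their products are secreted into the lumen through which sperm pass. The IS and caput are the first parts of the epididymis that sperm enter, and the genes expressed there differ from segment to segment and depend on androgens.

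Values are given as CPM, the count of a gene relative to the total of its library, scaled within each tissue by the TMM method of edgeR, as mean ± SD over 5 samples in the epididymal groups and 3 in the testis groups. Changes are log2 fold changes of ArKI against WT with their standard errors (SE). A gene was called when the adjusted p of edgeR's quasi-likelihood test was below 0.01 in the IS or caput, or below 0.2 in the testis, and the fold change was above 2. Total counts per sample ranged from 4125768 in ArKI caput replicate 2 to 21376604 in the testis, and 3 counts, taken as the lower limit of detection, corresponded to at most 0.727 CPM. The limit covers counting error only.

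The IS libraries carried their own markers, with the summed CPM of *Ros1*, *Etv4*, *Etv5*, *Rnase10*, *Cst8* and *Lcn8* at 27310 to 30210 in WT IS and 545 to 3200 in WT caput. Of 5 caput markers, *Lcn5* and *Lcn12* were called higher in WT caput. *Gpx5* and *Adam7* were abundant in both segments, and their level in the IS was 83.4% and 109.0% of that in the caput. *Crisp1*, the fifth, went the other way, with an IS level of 549.8% of that in the caput and separated groups (log2 fold change of WT caput against WT IS -2.45, SE 0.823, adjusted p = 0.0258 by edgeR, not called). The testis was sequenced in another run than the epididymis, and in values set across these tissues the run and the tissue cannot be told apart.

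Of the 10 genes, 9 lie on chromosome 2 within 531.5 kb (GENCODE annotation of mm10), at chr2:164214454-164745931, and *Wfdc1* lies on chromosome 8. The stretch from *Wfdc2* to *Wfdc3*, chr2:164562413-164745931, holds 8 of them in 183.5 kb. *Wfdc6b* on the plus strand and *Wfdc8* on the minus strand are divergent neighbours whose exons overlap by 105 bp at their starts in GENCODE. The counts were made per RefSeq gene, and the RefSeq starts of the promoter windows below leave no such overlap. The strand setting of the counting was not stated, so any read counted in such an overlap cannot be assigned to either gene with certainty. *Wfdc9* and *Wfdc10* overlap in span but not in exons. Of the 50-base windows of *Wfdc6b* transcript, 40.9% are identical to *Wfdc6a*, the neighbouring copy, so its counts, made from uniquely mapped reads, are uncertain as a level. The other 9 genes shared no such window with another gene on the same strand.

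RefSeq promoter windows on GRCm38.p6, from 250 bases before to 50 after the start, were found for 8 of the 10 genes. The promoters shown belong to the genes with the largest falls (*Wfdc3*, *Wfdc6b*), the largest rises (*Wfdc2*, *Wfdc16*) and to *Wfdc8*, the divergent neighbour of *Wfdc6b*. Capitals mark the TATA box letters TATAAA, searched on both strands. The windows are chr2:164743218-164743517 (minus strand) for *Wfdc3*, chr2:164613450-164613749 (plus) for *Wfdc6b*, chr2:164613577-164613876 (minus) for *Wfdc8*, chr2:164638753-164639052 (minus) for *Wfdc16* and chr2:164562465-164562764 (plus) for *Wfdc2*.
*Wfdc3* promoter: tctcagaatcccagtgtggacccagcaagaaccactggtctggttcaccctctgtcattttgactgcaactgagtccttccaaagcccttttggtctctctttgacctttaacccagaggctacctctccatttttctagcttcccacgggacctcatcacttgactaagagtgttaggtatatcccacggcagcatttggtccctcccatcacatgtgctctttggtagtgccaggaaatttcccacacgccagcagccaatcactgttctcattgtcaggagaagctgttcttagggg
*Wfdc6b* promoter: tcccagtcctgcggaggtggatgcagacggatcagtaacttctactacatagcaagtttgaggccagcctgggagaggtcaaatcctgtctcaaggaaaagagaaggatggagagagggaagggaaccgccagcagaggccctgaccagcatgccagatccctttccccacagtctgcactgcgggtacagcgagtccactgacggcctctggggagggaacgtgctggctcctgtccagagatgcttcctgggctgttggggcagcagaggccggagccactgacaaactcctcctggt
*Wfdc8* promoter: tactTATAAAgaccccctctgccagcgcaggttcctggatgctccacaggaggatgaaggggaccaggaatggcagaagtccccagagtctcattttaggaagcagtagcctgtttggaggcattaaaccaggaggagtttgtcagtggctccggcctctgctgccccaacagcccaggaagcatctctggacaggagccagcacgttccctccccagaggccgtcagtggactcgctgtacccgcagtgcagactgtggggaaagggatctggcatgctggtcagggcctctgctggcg
*Wfdc16* promoter: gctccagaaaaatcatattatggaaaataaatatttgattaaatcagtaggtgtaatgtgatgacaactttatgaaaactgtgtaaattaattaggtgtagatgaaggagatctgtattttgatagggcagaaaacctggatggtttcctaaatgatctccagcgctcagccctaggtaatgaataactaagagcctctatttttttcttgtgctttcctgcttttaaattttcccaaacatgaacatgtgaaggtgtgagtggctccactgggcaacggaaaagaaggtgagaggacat
*Wfdc2* promoter: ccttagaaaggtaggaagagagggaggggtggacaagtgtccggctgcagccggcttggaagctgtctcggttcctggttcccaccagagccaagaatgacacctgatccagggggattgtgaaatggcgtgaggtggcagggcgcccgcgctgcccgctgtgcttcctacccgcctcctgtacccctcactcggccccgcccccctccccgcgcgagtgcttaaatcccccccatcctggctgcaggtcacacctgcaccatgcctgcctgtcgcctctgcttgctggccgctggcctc

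The TATAAA letters were present in 1 of the 8 genes, *Wfdc8*, near the far end of its window, and in 13.6% of all 32851 promoter windows, so they do not set these genes apart. For the windows shown, the RefSeq starts of *Wfdc3*, *Wfdc6b* and *Wfdc2* lie inside the spans that GENCODE gives these genes. The windows shown for *Wfdc6b* and *Wfdc8* share 173 bases read in opposite directions, and the window of a second RefSeq start of *Wfdc8*, not shown, shares 187 bases with that of *Wfdc6b*. A match of these letters is a description and does not show binding.

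In the IS, ArKI mice had less *Wfdc6b* and *Wfdc8* RNA, the divergent pair, than WT mice. Of the 9 genes tested there, 2 were called lower and none higher, where 1.32% of all 13434 tested genes were called lower, 2.72% higher and 4.04% in either direction. DESeq2 and limma-voom also called 0 higher and 2 lower. At an unadjusted p under 0.05 by edgeR, 2 genes (*Wfdc2* and *Wfdc15b*) were at higher and 5 (*Wfdc1*, *Wfdc6b*, *Wfdc8*, *Wfdc9* and *Wfdc10*) at lower levels, where 20.2% and 19.5% of all tested genes were. The median log2 fold change of the 9 genes was -0.68, beside -4.41e-05 over all tested genes.

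*Wfdc6b* encodes an epididymal WAP-domain protein close in sequence to that of *Wfdc6a*. In WT IS it stood at 19.7, 9.26, 8.74, 12.8 and 11.2 CPM, and in ArKI IS at 3.32, 2.68, 1.88, 2.05 and 4.001 CPM. The groups were fully separated, and the ArKI mean was 4.42-fold lower (log2 fold change -2.11, SE 0.261, adjusted p = 2.82e-05 by edgeR). *Wfdc6a* was 56.3 ± 4.13 CPM in WT and 47.0 ± 6.01 CPM in ArKI IS and was not called (log2 fold change -0.26, SE 0.0786, adjusted p = 0.0179 by edgeR).

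*Wfdc8*, which encodes a larger secreted protein of the family with several domains, was 118, 104, 124, 150 and 113 CPM in WT IS. In ArKI IS it was 56.1, 55.9, 60.8, 50.6 and 55.4 CPM. The groups did not overlap, and the means differed 2.18-fold (log2 fold change -1.12, SE 0.0856, adjusted p = 2.6e-07 by edgeR). The genes *Wfdc6b* and *Wfdc8* are also on a list of androgen-regulated genes that the study selected on these samples, so their direction has no independent support there. In bulk tissue, fewer cells of a type and less RNA per cell cannot be told apart.

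The other 7 genes tested in the IS were not called. By the FDR alone, without the fold change limit, 1 of all 9 genes was higher and 3 were lower, the 2 called genes included, where 9.35% and 9.48% of all tested genes passed in those directions. *Wfdc2*, the gene of human epididymis protein 4, was the one with a higher level in ArKI IS that passed the FDR alone. It was 14.3, 18.1, 14.5, 13.4 and 16.6 CPM in WT and 23.0, 27.2, 19.8, 30.6 and 29.8 CPM in ArKI IS, without overlap (log2 fold change 0.75, SE 0.118, adjusted p = 8.89e-05 by edgeR). *Wfdc1*, the gene of the stromal growth regulator ps20, was 8.91 ± 2.05 CPM in WT and 5.55 ± 1.08 CPM in ArKI IS, with overlapping groups (log2 fold change -0.68, SE 0.179, adjusted p = 0.00672 by edgeR). Its adjusted p by edgeR was 0.0108 to 0.027 without any single one of ArKI replicates 2, 3, 4 and 5 or WT replicates 2, 3 and 4. Of all 9 genes, *Wfdc2* in the higher direction and the called *Wfdc6b* and *Wfdc8* in the lower had groups without overlap, where 9.53% and 10.5% of all tested genes were so separated.

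*Wfdc10*, the most abundant of the 10 genes per kb in the epididymis, was 610 to 784 CPM in WT and 297 to 642 CPM in ArKI IS. The groups overlapped by ArKI replicate 2, and the log2 fold change of -0.58 (SE 0.19) had an adjusted p of 0.0513 by edgeR. *Wfdc9* was 6.60 ± 2.67 and 3.92 ± 1.28 CPM (log2 fold change -0.74, SE 0.27, adjusted p = 0.0509), and *Wfdc3* 2.06 ± 1.10 and 1.32 ± 0.413 CPM (-0.70, SE 0.358, adjusted p = 0.151). *Wfdc15b* and *Wfdc16* differed by 0.17 (SE 0.05, adjusted p = 0.0157) and 0.16 (SE 0.107, adjusted p = 0.274) on the log2 scale. *Wfdc13* had 0 to 7 counts in the IS samples of both genotypes, too few to detect a difference.

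**Figure D1:**
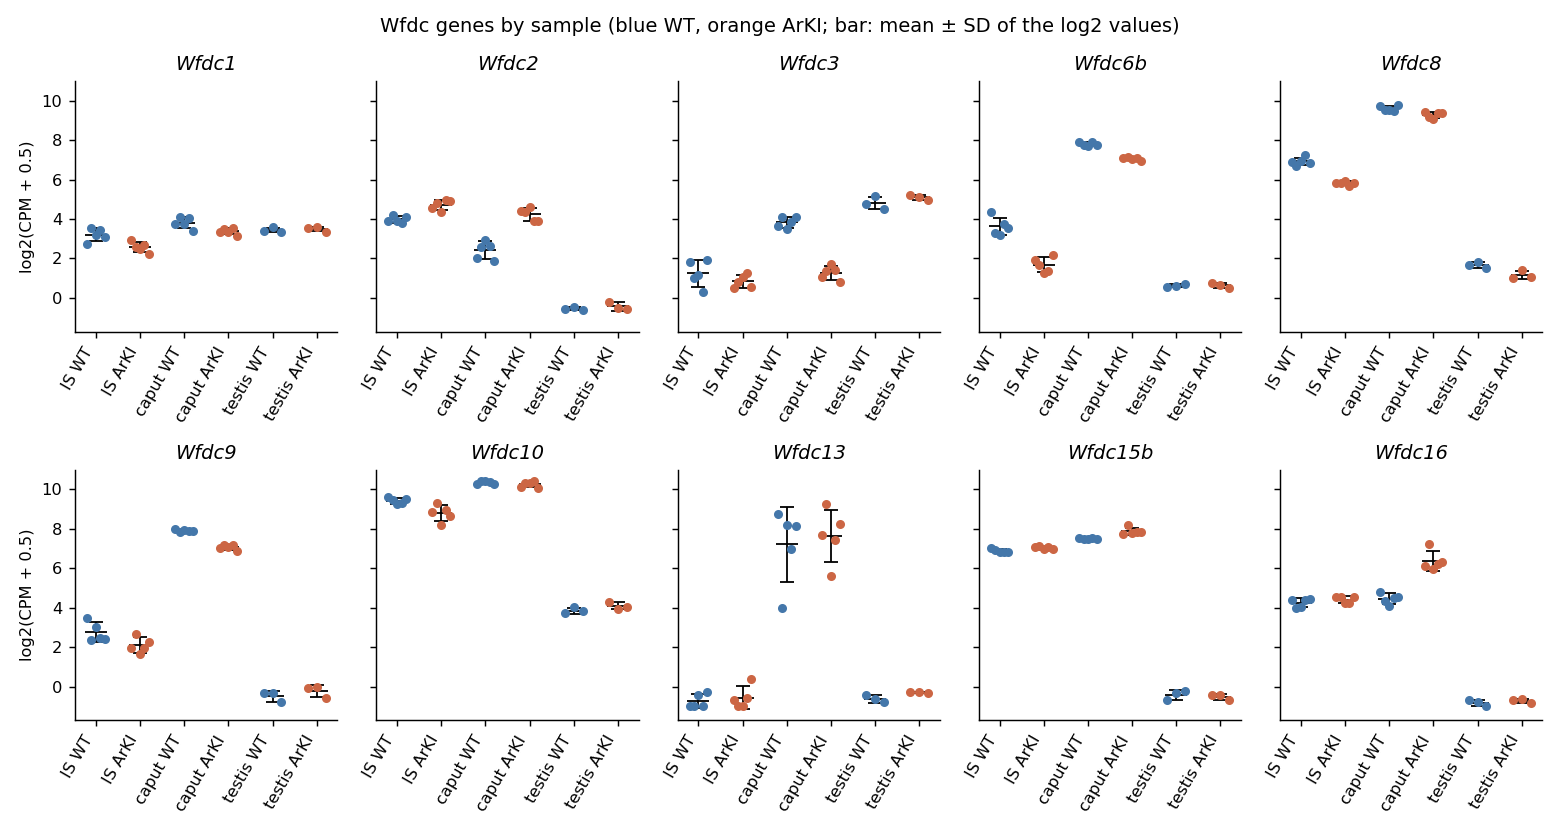
Each point is 1 sample, plotted as log2(CPM + 0.5) of the 10 *Wfdc* genes in the 6 groups, with WT in blue, ArKI in orange and bars for the mean ± SD of the log2 values. ArKI points of *Wfdc3* in the caput and of *Wfdc6b* in the IS lie below all WT points, those of *Wfdc2* and *Wfdc16* in the caput above, and *Wfdc13* is spread widely in the caput of both genotypes.

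In the caput, ArKI mice had less *Wfdc3* and more *Wfdc16* and *Wfdc2* RNA than WT mice. Of the 10 genes tested, 2 were called higher and 1 lower, where 2.43% of all 13726 tested genes were called higher, 2.55% lower and 4.98% in either direction. By the FDR alone 3 were higher and 4 lower, where 8.62% and 9.36% of all tested genes passed. In 3 genes all ArKI samples lay above all WT samples and in 4 all lay below, where 9.94% and 10.4% of all tested genes were so separated. The median log2 fold change of the 10 genes was -0.20, beside 0.0017 over all tested genes.

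*Wfdc3*, at one end of the cluster, whose promoter window is printed above, had the largest change of the 10. It was 11.9, 16.4, 10.9, 13.6 and 16.4 CPM in WT caput and 1.56, 2.08, 2.74, 2.14 and 1.23 CPM in ArKI caput. Every ArKI sample was far below every WT sample, a 7.10-fold difference of the means (log2 fold change -2.82, SE 0.194, adjusted p = 1.32e-08 by edgeR). In counts this was 93 to 151 in WT and 9 to 31 in ArKI samples.

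*Wfdc3* is also a testis gene, at 22.5 to 35.3 CPM in WT testis. RNA of germ cell genes moved the same way in the caput. The summed CPM of 8 germ cell markers was 215 to 338 in WT and 35.1 to 95.4 in ArKI caput, and all 7 markers tested were called lower. The falls were uneven. *Prm1* fell by 3.34 on the log2 scale (SE 0.334, adjusted p = 3.8e-05 by edgeR). *Odf1* fell by 1.10 (SE 0.205, adjusted p = 0.00323) and *Smcp* by 1.16 (SE 0.211, adjusted p = 0.00298). The other markers tested fell by 3.035 (*Tnp2*) to 3.63 (*Akap4*). The 8th, *Acrv1*, had at most 5 counts in any caput sample, and *Tnp1* and *Akap4* had 0 counts in at least 1 ArKI caput sample. The germ cell markers were also higher in WT caput than in WT IS, with all 7 tested called, as *Wfdc3* was. The part of germ cell RNA in the fall of *Wfdc3* was not tested. In the testis, the germ cell markers summed to 15560 to 19150 CPM in WT and 17170 to 19690 CPM in ArKI mice, with *Wfdc3* at 28.1 ± 6.54 and 33.6 ± 2.70 CPM.

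*Wfdc16*, a less studied gene in the middle of the cluster, was 27.5, 19.7, 16.4, 22.3 and 22.4 CPM in WT caput. In ArKI caput it was 68.2, 147, 62.1, 73.5 and 80.0 CPM. Its groups did not overlap, and the mean was 3.98-fold higher (log2 fold change 1.95, SE 0.27, adjusted p = 0.000789 by edgeR). ArKI replicate 2, the shallowest library, was the highest, and without it the log2 fold change was 1.72 with an adjusted p of 1.47e-06 by edgeR.

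*Wfdc2* was 3.58, 5.53, 7.24, 5.60 and 3.15 CPM in WT caput and 20.5, 20.1, 24.0, 14.3 and 14.6 CPM in ArKI caput. The lowest ArKI sample lay well above the highest WT sample, and the mean was 3.72-fold higher (log2 fold change 1.89, SE 0.221, adjusted p = 4.04e-05 by edgeR). Ciliated cells of the efferent ducts, which open into the IS, are another cell type that these dissections could hold. Their 3 markers in the tables were summed to 15.2 to 19.6 CPM in WT and 11.3 to 13.2 CPM in ArKI caput, without overlap and in the direction opposite to *Wfdc2*. *Rsph1*, which made up most of the sum, was 14.2 ± 1.48 CPM in WT and 9.36 ± 1.52 CPM in ArKI caput and passed the FDR below the fold change limit (log2 fold change -0.56, SE 0.115, adjusted p = 0.00136 by edgeR). *Ccdc39* was called lower there (log2 fold change -1.05, SE 0.231, adjusted p = 0.00227 by edgeR), and *Foxj1* was 1.19 ± 0.164 and 1.82 ± 1.06 CPM and did not pass (adjusted p = 0.333). All 3 are also abundant in WT testis, *Rsph1* at 994.5 ± 31.6 CPM, *Ccdc39* at 285 ± 18.5 CPM and *Foxj1* at 102 ± 8.77 CPM. In the IS all 3 were higher in the ArKI mean, with sums of 42.5 to 63.3 CPM in WT and 70.1 to 208 CPM in ArKI mice, in the same direction as *Wfdc2*. Their part in the *Wfdc2* level of either segment was not tested.

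Another 4 genes passed the FDR in the caput but not the fold change limit. *Wfdc9* was 252, 226, 241, 240 and 237 CPM in WT and 129, 146, 137, 143 and 118 CPM in ArKI caput (log2 fold change -0.83, SE 0.058, adjusted p = 1.47e-08 by edgeR). *Wfdc6b* was 224 ± 13.4 and 133 ± 7.07 CPM (log2 fold change -0.75, SE 0.0538, adjusted p = 1.96e-08). For both genes the spread within a genotype was small, and the groups were well apart.

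*Wfdc8* was 782 ± 79.5 CPM in WT and 624 ± 59.3 CPM in ArKI caput (log2 fold change -0.33, SE 0.0759, adjusted p = 0.00385 by edgeR), without overlap. Its adjusted p by edgeR was 0.0121 to 0.0135 without WT replicate 1, WT replicate 5 or ArKI replicate 2. *Wfdc15b* was 178 to 184 CPM in WT and 214 to 293 CPM in ArKI caput (log2 fold change 0.39, SE 0.0699, adjusted p = 0.000447), and ArKI replicate 2 was again the highest. Without that library its log2 fold change was 0.31 (adjusted p = 3.27e-05 by edgeR).

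The remaining 3 genes did not pass. *Wfdc10*, at 1297 ± 61.2 CPM in WT and 1223 ± 127 CPM in ArKI caput, had a log2 fold change of -0.08 (SE 0.0667, adjusted p = 0.388 by edgeR). *Wfdc1* was 13.6 ± 2.59 and 9.85 ± 1.06 CPM (log2 fold change -0.48, SE 0.132, adjusted p = 0.0114).

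*Wfdc13* was 435, 15.5, 287, 124 and 281 CPM in WT caput and 203, 601, 47.9, 175 and 298 CPM in ArKI caput. The range within each genotype was more than the difference between them (log2 fold change 0.20, SE 0.849, adjusted p = 0.90 by edgeR), and the sign turned when WT replicate 2 (-0.11) or ArKI replicate 2 (-0.33) was left out. *Spint4*, a Kunitz inhibitor gene of the same cluster, varied with it. It was 1287, 7.59, 582, 39.2 and 388 CPM in WT and 211, 365, 5.38, 101 and 410 CPM in ArKI caput. In both genotypes the library with the least *Wfdc13* had the least *Spint4*. *Defb28*, the beta-defensin gene whose pattern was most like that of *Wfdc13*, was also lowest in those libraries, at 28.4 CPM in WT replicate 2 and 47.2 CPM in ArKI replicate 3. *Spint4* and *Defb28* were set beside *Wfdc13* after their values were seen.

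**Figure D2:**
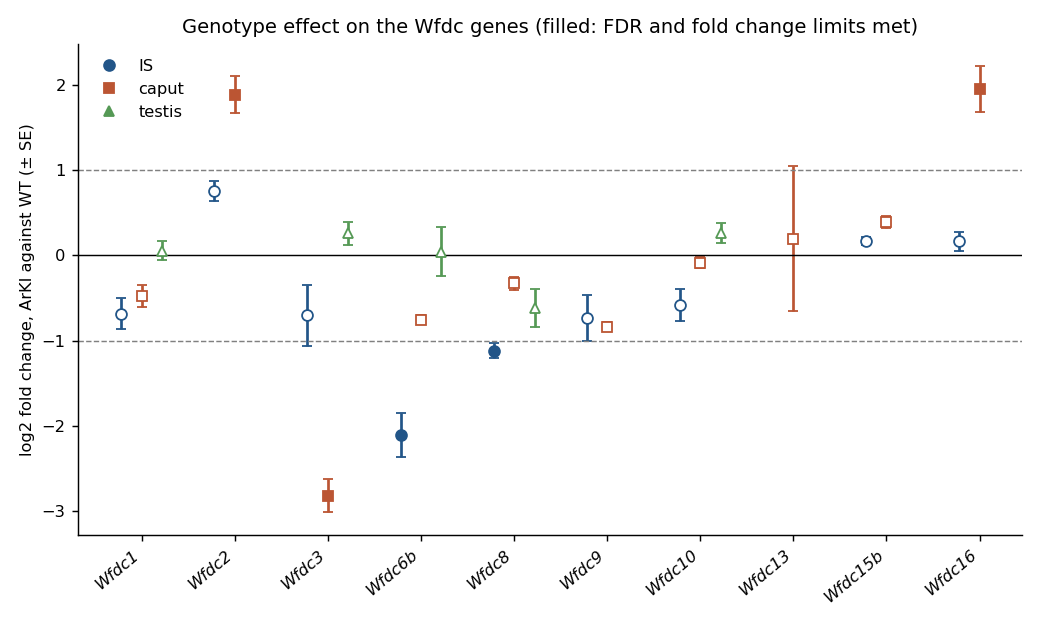
Log2 fold changes of ArKI against WT (± SE of the edgeR fit) for each *Wfdc* gene in the IS, caput and testis. Filled symbols passed both the FDR and the fold change limit of 2 (dashed lines), which holds for *Wfdc6b* and *Wfdc8* in the IS and *Wfdc2*, *Wfdc3* and *Wfdc16* in the caput, and genes below the count filter have no symbol.

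The IS and caput effects were compared by the interaction of segment and genotype over the 20 epididymal samples, in which a positive value means that the ArKI effect was higher in the caput. Both segments came from the same 5 ArKI and 5 WT mice as the methods are worded, but the labels do not tie a caput sample to the IS sample of its mouse. The samples were therefore fitted as independent, here and between WT caput and WT IS, and these p-values do not allow for the shared mice. At an adjusted p below 0.01, 4 of the 10 genes were called in the positive direction and 1 in the negative, where 3.95% and 4.23% of all 14329 tested genes, 8.18% in all, were called. *Wfdc16* had an interaction of 1.78 (SE 0.316, adjusted p = 0.000884 by edgeR), with 1.95 in the caput and 0.16 in the IS. *Wfdc6b* (1.34, SE 0.268, adjusted p = 0.00194) and *Wfdc8* (0.79, SE 0.12, adjusted p = 7.96e-05) were lower in ArKI mice in both segments, with the deeper fall in the IS. *Wfdc3* had a value of -2.11 (SE 0.44, adjusted p = 0.00139), with the fall in the caput.

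*Wfdc2* was higher in ArKI mice in both segments, and more so in the caput (1.13, SE 0.266, adjusted p = 0.00562 by edgeR). With the replicate number as a block the call was lost (adjusted p = 0.0532 by edgeR). It was also lost in 6 of the 20 fits that left out 1 sample, with adjusted p of 0.0104 to 0.014 by edgeR, without IS ArKI replicate 1, IS WT replicate 2, IS WT replicate 5, caput WT replicate 1, caput WT replicate 5 or caput ArKI replicate 1. The difference was 0.20 for *Wfdc1*, 0.49 for *Wfdc10*, 0.22 for *Wfdc15b*, -0.11 for *Wfdc9* and -0.80 for *Wfdc13*, and none of these passed. For *Wfdc10* the adjusted p was 0.112, and it was 0.00885 without IS ArKI replicate 2.

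Some neighbours in the cluster changed by unequal amounts. Pairs were chosen after their values were seen, so their ratios are given as a description with no test. The log2 ratio of *Wfdc9* to *Wfdc10*, which overlap in span, was -2.44 ± 0.109 in WT and -3.18 ± 0.0623 in ArKI caput, and in the IS it was nearly the same in both genotypes, at -6.66 ± 0.468 and -6.70 ± 0.253. The log2 ratio of *Wfdc6b* to *Wfdc8* was -3.30 ± 0.451 in WT and -4.14 ± 0.404 in ArKI IS, and -1.79 ± 0.161 and -2.22 ± 0.163 in the caput.

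**Figure D3:**
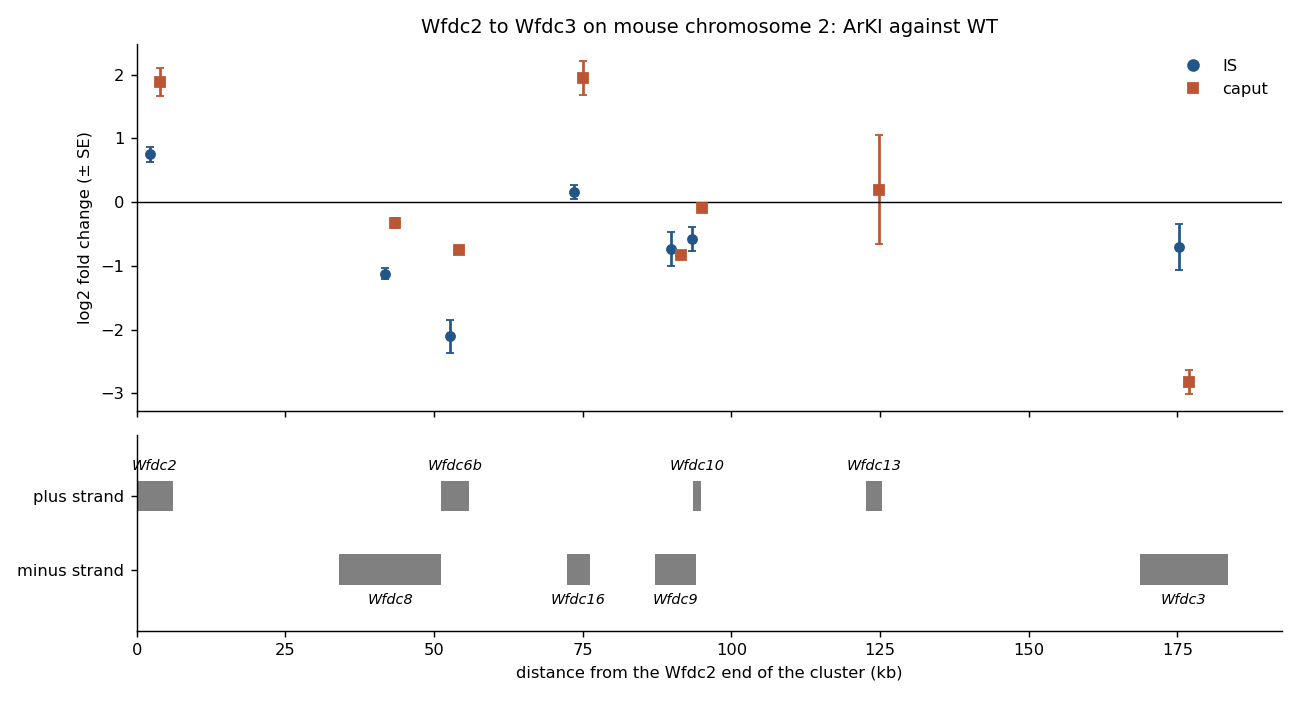
Above, log2 fold changes of ArKI against WT (± SE) in the IS and caput for the 8 genes between *Wfdc2* and *Wfdc3*, against their distance in kb from the *Wfdc2* end, with the symbols of both tissues set slightly apart. Below, the gene spans to scale on the plus and minus strands. Genes with higher and with lower levels in ArKI mice lie side by side along the 183.5 kb, and the caput rises of *Wfdc2* and *Wfdc16* lie on either side of the lower *Wfdc8* and *Wfdc6b*.

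Most of the family had more RNA in the caput than in the IS of WT mice. Between WT caput and WT IS, 5 of the 10 genes were called higher in the caput and 1 lower, where 11.1% and 9.71% of all 13787 tested genes, 20.8% in all, were called. *Wfdc9* (log2 fold change 5.19, SE 0.161, adjusted p = 8.46e-10 by edgeR), *Wfdc6b* (4.20, SE 0.169, adjusted p = 1.49e-08), *Wfdc3* (2.70, SE 0.25, adjusted p = 1.98e-07) and *Wfdc8* (2.70, SE 0.101, adjusted p = 2.69e-10) were higher. *Wfdc13* had at most 3 counts in WT IS, and its WT caput mean was at least 536.5-fold higher, against a floor of 3 counts per library. Its WT caput samples ranged from 15.5 to 435 CPM. The adjusted p was 0.000345 by edgeR and 0.0862 by limma-voom, which did not call *Wfdc13*. *Wfdc2* was lower in the caput (-1.62, SE 0.17, adjusted p = 1.65e-07).

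In this comparison *Wfdc10* (0.93), *Wfdc15b* (0.64) and *Wfdc1* (0.63) passed the FDR below the fold change limit, and *Wfdc16* did not pass (0.23, SE 0.132, adjusted p = 0.139 by edgeR). By the FDR alone 8 genes were higher and 1 lower, where 30.8% and 31.3% of all tested genes passed. In 7 genes the WT caput samples all lay above the WT IS samples and in 1 gene below, where 28.6% and 29.1% of all tested genes were so separated. Set as shares of the WT caput level, WT IS held 2.75% of *Wfdc9*, 5.48% of *Wfdc6b*, 14.9% of *Wfdc3* and 15.5% of *Wfdc8*. The 5 caput markers had no common share in the same libraries, with *Lcn5* at 0.546%, *Lcn12* at 11.6% and the others at 83.4% to 549.8%.

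The order of levels was read from CPM scaled over all 26 samples and divided by exon length (RPKM). In WT IS *Wfdc10* was first at 1414 ± 151 RPKM, followed by *Wfdc15b* at 194 ± 11.8 and *Wfdc8* at 32.1 ± 4.50 RPKM, each apart from the next. The samples of *Wfdc2*, *Wfdc16*, *Wfdc6b* and *Wfdc9*, at 17.1 to 11.4 RPKM in the mean, overlapped from neighbour to neighbour. *Wfdc1*, *Wfdc3* and *Wfdc13* came last, at 6.14, 2.14 and 0.0988 RPKM.

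In WT caput *Wfdc10* was again first, at 2679 ± 130 RPKM, then *Wfdc9* at 414 ± 14.5 and *Wfdc15b* at 300.0 ± 4.14 RPKM. *Wfdc6b*, *Wfdc8* and *Wfdc13* overlapped at 216, 207 and 201 RPKM. *Wfdc16*, *Wfdc3*, *Wfdc1* and *Wfdc2* followed at 18.4, 14.4, 9.43 and 5.61 RPKM, with overlap between neighbours. In ArKI caput this lower part was in another order, with *Wfdc16* at 73.3, *Wfdc2* at 21.0, *Wfdc1* at 6.85 and *Wfdc3* at 2.04 RPKM. *Wfdc15b* stood before *Wfdc9* there, at 396 ± 46.0 and 234 ± 17.8 RPKM.

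Summed over the family, RPKM was 1704 ± 164 in WT and 1236 ± 280 in ArKI IS, 4065 ± 105 and 3803 ± 355 in the caput, and 85.1 ± 14.3 and 102 ± 8.54 in the testis. *Wfdc10* made up 82.9% of the sum in WT and 75.6% in ArKI IS, and 65.9% and 66.9% in the caput. *Wfdc9* went from 10.2% of the sum in WT caput to 6.17% in ArKI caput.

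**Figure D4:**
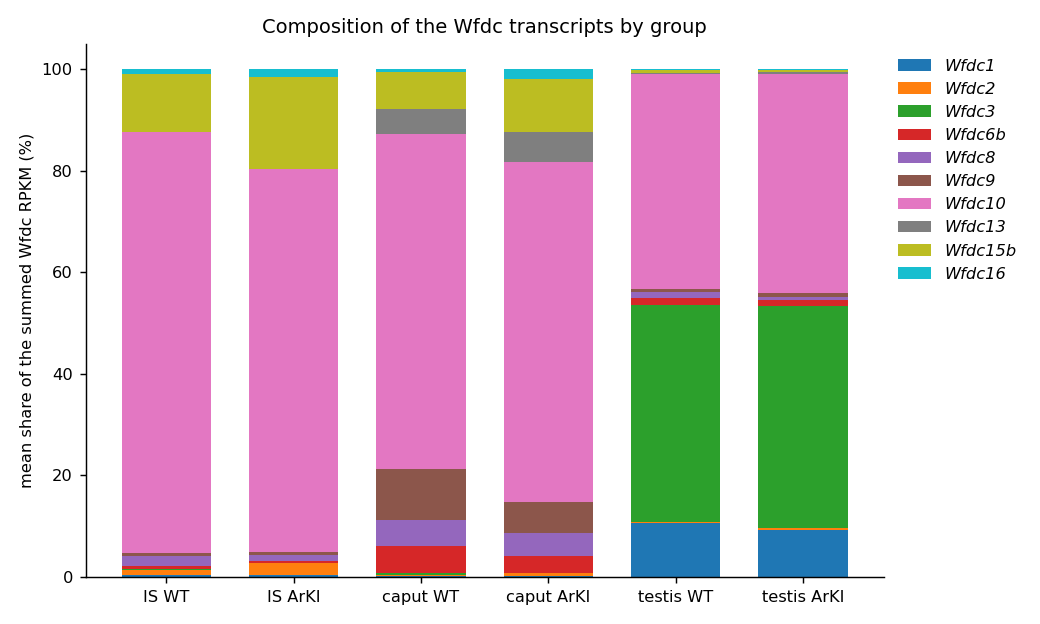
Mean share of each *Wfdc* gene in the summed RPKM of the 10 genes (%) in the 6 groups, stacked to 100. *Wfdc10* holds the greatest share in the epididymis, while *Wfdc3* (42.6% in WT) and *Wfdc10* (42.5% in WT) hold nearly equal shares in the testis.

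In the testis none of the 5 genes that passed the count filter was called, where 0.751% of all 15838 tested genes were called higher, 0.0821% lower and 0.833% in either direction. DESeq2 and limma-voom called none either. *Wfdc8* had the lowest adjusted p. It was 2.70, 3.02 and 2.35 CPM in WT and 1.504, 2.12 and 1.56 CPM in ArKI testis, without overlap, and passed the FDR below the fold change limit (log2 fold change -0.62, SE 0.218, adjusted p = 0.191 by edgeR). The pass was marginal, with adjusted p of 0.164 to 0.429 by edgeR when 1 sample was left out, above 0.2 in all of these 6 fits but the one without ArKI replicate 2, and 0.504 by DESeq2. It was the 1 gene of the 5 to pass the FDR alone and the 1 without overlap, both in the lower direction, where 1.79% of all tested genes passed and 8.49% did not overlap (3.55% and 9.35% in the higher direction). *Wfdc10* (0.26, SE 0.114, adjusted p = 0.316) and *Wfdc3* (0.26, SE 0.131, adjusted p = 0.427) had groups that overlapped. *Wfdc1* and *Wfdc6b* differed by 0.06 (SE 0.114) and 0.04 (SE 0.285).

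*Wfdc8* and *Wfdc10* had an unadjusted p under 0.05 by edgeR, at 0.0098 in the lower and 0.0308 in the higher direction, where 5.95% and 7.08% of all tested genes were under 0.05. *Wfdc2*, *Wfdc9*, *Wfdc13*, *Wfdc15b* and *Wfdc16* had 10 counts or fewer in every testis sample and were left out by the filter. Fitted without the filter, their adjusted p values were 0.631 to 0.922 by edgeR, and these counts are too low to show a difference. Per kb, *Wfdc3* at 36.6 ± 8.94 RPKM and *Wfdc10* at 36.0 ± 4.63 RPKM led the family in WT testis and overlapped.

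Of the other listed inhibitor and protease genes that passed the count filter of a tissue, none was called between the genotypes there by edgeR. Of 16 other WFDC and WAP-domain genes listed, 11 were in the tables and 6 were tested in each tissue, and at an unadjusted p under 0.05 there were 3 in the IS, all lower, 1 lower and 1 higher in the caput, and 1 higher in the testis. At that limit 19.5% of all tested genes were lower in the IS, 18.8% lower and 18.9% higher in the caput, and 7.08% higher in the testis. *Wfdc11*, a neighbour in the cluster, was 72.0 ± 4.38 CPM in WT and 43.0 ± 3.37 CPM in ArKI caput, and passed the FDR below the fold change limit (log2 fold change -0.73, SE 0.0608, adjusted p = 1.28e-07 by edgeR). *Spinlw1*, the gene of eppin, which coats sperm, was 23.7 ± 4.25 and 32.5 ± 2.73 CPM in the testis (0.45, SE 0.108, adjusted p = 0.0301).

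*Expi*, a WAP-domain gene, was below the filter in the caput, with 0 to 2 counts in WT and 11 to 42 counts in ArKI samples (0.0487 ± 0.109 and 3.03 ± 3.73 CPM, 9.69 CPM in the highest). Its interaction was called (5.38, SE 1.16, adjusted p = 0.00271 by edgeR), and a fitted value of a gene this low depends on the prior count. The protease gene *Hpn* was called in the interaction in the other direction (-0.63, SE 0.158, adjusted p = 0.00694).

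*Slpi*, the gene of the leukocyte protease inhibitor SLPI, was 8.05 ± 2.30 and 14.5 ± 6.51 CPM in the caput with an adjusted p of 0.107 by edgeR. *Wfdc6a*, *Wfdc11*, *Spinlw1*, *Expi*, *Hpn*, *Slpi*, *Spint3* and the single cell type markers were named after their values were seen. Of 11 Kunitz and seminal vesicle protein genes, 1 was tested in the IS, 2 in the caput and 1 in the testis. *Spint3* was higher in ArKI IS at an unadjusted p under 0.05 by edgeR, where 20.2% of all tested genes were. Of 18 secreted or membrane serine protease genes, the possible targets of such inhibitors, 10, 10 and 12 were tested in the IS, caput and testis. By the FDR alone 1 in each tissue was higher and 1 in the IS lower. Of all tested genes, 9.35%, 8.62% and 3.55% passed higher in the IS, caput and testis, and 9.48% lower in the IS. The protease genes had a median log2 fold change of 0.24 in the IS, 0.14 in the caput and 0.14 in the testis.

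Cell type markers moved with genotype in the IS as well. The 4 smooth muscle markers summed to 501 to 567 CPM in WT and 211 to 385 CPM in ArKI IS, 2 of them called lower and all 4 past the FDR. *Wfdc1* was lower in the same libraries, and the part of smooth muscle in its level was not tested. In the caput the smooth muscle sums overlapped, at 716 to 882 and 581 to 1276 CPM. Germ cell markers in the IS were 9.81 to 65.7 CPM in WT and 2.02 to 5.47 CPM in ArKI mice. The 4 basal cell markers summed to 339 to 388 CPM in WT and 267 to 295 CPM in ArKI IS, with 2 past the FDR and none called, and overlapped in the caput.

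Clear cell and immune cell sums overlapped between the genotypes in both segments, with no marker called, but single markers passed the FDR in opposite directions. Of 4 clear cell markers, 1 was higher and 1 lower in ArKI IS, and 2 were higher and 1 lower in ArKI caput. Of the immune markers, 1 was lower in ArKI IS. The Leydig and Sertoli cell list was carried by *Sox9*, at 133 ± 8.61 CPM in WT and 166 ± 17.4 CPM in ArKI IS and 55.1 ± 3.63 and 92.0 ± 7.30 CPM in the caput, while *Insl3* and *Amh* had at most 7 counts in any epididymal sample. The gene called lower from this list was *Rhox5*, with 43 to 68 counts in WT and 0 in every ArKI caput sample. The paper describes *Rhox5* as androgen-regulated and as expressed in the caput itself as well as in Sertoli cells. In ArKI caput *Sox9* (log2 fold change 0.74, SE 0.0624, adjusted p = 1.51e-07 by edgeR) and *Cyp17a1* (0.44, SE 0.107, adjusted p = 0.00487) passed the FDR in the higher direction. *Sox9* also did so in the IS (0.32, SE 0.0658, adjusted p = 0.00129 by edgeR).

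The IS markers themselves were lower in ArKI IS, with sums of 20630 to 24250 CPM against 27310 to 30210 CPM in WT, without overlap. Of these 6 markers, 5 passed the FDR in the lower direction and none was called. *Crisp1* was called lower in ArKI IS (log2 fold change -2.58, SE 0.23, adjusted p = 5.78e-05 by edgeR), and caput markers as a list did not move together. *Wfdc6b* and *Wfdc8*, whose levels differ between the segments, fell in the same libraries in which the IS, smooth muscle, basal and germ cell lists were lower and the ciliated list higher, and the part of segment boundaries or of these cells in their levels was not tested.

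**Figure D5:**
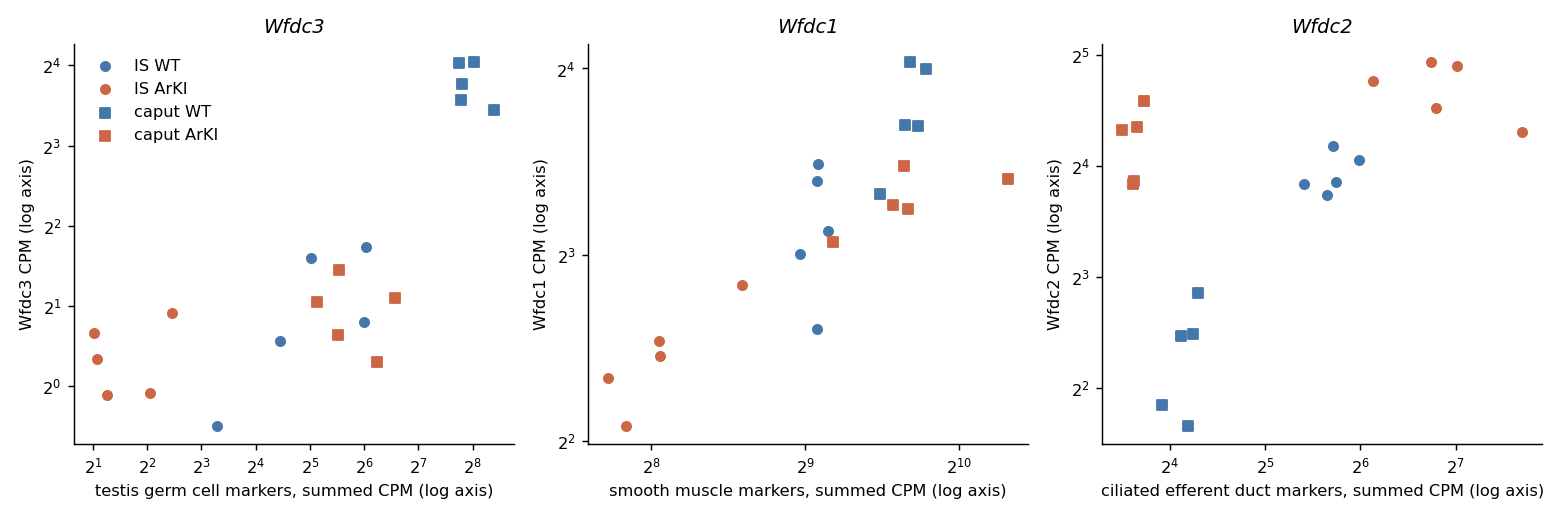
CPM of *Wfdc3*, *Wfdc1* and *Wfdc2* against the summed CPM of germ cell, smooth muscle and ciliated efferent duct markers in the 20 epididymal samples, all on log axes, with circles for IS, squares for caput, blue for WT and orange for ArKI. WT caput samples are highest for both *Wfdc3* and germ cell markers, ArKI IS samples are lowest for smooth muscle and mostly lowest for *Wfdc1*, and *Wfdc2* in the caput is higher in ArKI samples while the summed ciliated markers, mostly *Rsph1*, are lower.

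Genes whose pattern was most like that of each *Wfdc* gene were ranked by Pearson's r of log2(CPM + 0.5) over the 20 epididymal samples, among 14329 genes. The points share 2 segments and 2 genotypes, so high values are common and are given as a description. *Wfdc8* was nearest to *Enpp1* (0.998) and *Tcf7* (0.995), and *Wfdc6b* by *Wfdc8* (0.991), *Enpp1* (0.989) and *Prom2* (0.988). *Wfdc9* was followed by *Dysf*, *Lamp1* (both 0.995) and *Ace* (0.993), and *Wfdc10* by *Psap* (0.971), *2200002K05Rik* and *Prom2* (both 0.970).

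For *Wfdc13* the genes were *Defb28* (0.993), *Faim2* (0.988) and *Myom2* (0.988), and for *Wfdc15b* *Cox6c* (0.987), *Adh5* (0.987) and *Cdkn1a* (0.980). *Wfdc3* was nearest to *Cntn1* (0.971), *Ppa1* (0.945) and *Nr1h5* (0.942), and *Wfdc16* to *Slc35f2* (0.969), *Gpx2* (0.952) and *Gramd3* (0.949). *Wfdc2* was nearest to *X99384* (0.941), *Ets2* (0.939) and *Ankrd29* (0.937), and *Wfdc1* to *Hoxc8* (0.913), *Hhip* (0.911) and *Tcf21* (0.903). *Wfdc6b* was the one gene of the 10 whose nearest gene was another of them.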

How the data were processed

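All 26 RNA-seq libraries were used. The authors aligned 50-base single-end reads to mm10 with STAR and counted uniquely mapped reads per RefSeq gene with Subread 1.5.1, and the deposited values are raw counts. The labels and the paper name different library kits, and the strand setting of the counting is not given in the sources used here. Each tissue was fitted by itself in R 4.3.3 with edgeR 4.0.16 (filterByExpr with a minimum count of 10 and total of 15, TMM, robust quasi-likelihood test, Benjamini-Hochberg over all genes tested), with the calling limits of the study. Its ROTS test was not run. Limma 3.58.1 and DESeq2 1.42.0 were alternatives. Depth was 5829074 to 9770625 counts in the IS, 4125768 to 11913469 in the caput and 14077013 to 21376604 in the testis. RPKM used exon lengths of GENCODE transcripts matched to RefSeq. The members and lists were chosen with earlier results of these data known. The text names the 10 members, genes of the inhibitor and protease lists called by genotype in a tissue (there were none, and other list genes and markers were chosen after their values were seen) and the 3 genes most correlated with each member. The targeted gene and 1 of these correlated genes are not reported here. The fits were tested on simulated data.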

Additional observations from a re-analysis of the deposited data

Results flagged for a closer look

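In ArKI caput, replicate 2 stood apart from the other 4 samples for 2 genes by Dixon's criterion. *Wfdc15b* was 293.0 CPM in it and 214 to 230 CPM in the others, and *Wfdc16* was 146.9 CPM in it and 62.1 to 80.0 CPM in the others. This library has the lowest depth of the series, 4125768 counts. Of 38 groups screened, chance alone gives 1.9 flags. Without it, the log2 fold change in the caput was 0.31 for *Wfdc15b* (adjusted p = 3.27e-05 by edgeR) and 1.72 for *Wfdc16* (adjusted p = 1.47e-06).

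The ArKI effect differed between caput and IS by the interaction test of edgeR for 5 genes. The difference, caput minus IS on the log2 scale, was 1.13 for *Wfdc2*, -2.11 for *Wfdc3*, 1.34 for *Wfdc6b*, 0.79 for *Wfdc8* and 1.78 for *Wfdc16*. That of *Wfdc2* lost the call in 6 of the 20 fits that left out 1 sample.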

How the results depend on the processing

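Of 900 alternative values of single *Wfdc* genes, 875 kept direction and side of the threshold, 8 lost a call, 11 gained one and 6 changed sign. Apart from the interaction of *Wfdc10* without IS ArKI replicate 2, the gains came from dropping the fold change limit on the same fit. Genes that a stricter filter left out have no value among the 900, so the call of *Wfdc3* lost that way in the caput is not among the 8. With at least 10 counts in every sample, the genes called were 350 (543 in the IS as reported), 311 (683, caput), 75 (132, testis) and 1899 (2865, WT caput against WT IS), since fewer genes were tested. *Wfdc* genes called lower in the caput went from 1 to 0, those called in the negative direction of the interaction from 1 to 0, and those called higher in WT caput from 5 to 3. Without a fold change limit, 2529, 2468, 846 and 8575 genes were called in the same order, with 1 *Wfdc* gene higher in the IS, 4 lower in the caput, 1 lower in the testis and 8 higher in WT caput. At an FDR of 0.05 the interaction called 2170 genes (1172 as reported). By limma-voom, the adjusted p of *Wfdc13* in WT caput against WT IS was 0.0862. By Spearman correlation 0 genes had another *Wfdc* gene as nearest, against 1.

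Leaving out 1 sample (leave-one-out) gave 491 to 694 genes in the IS, 666 to 734 in the caput, 116 to 160 in the testis, 2889 to 2998 for WT caput against WT IS and 992 to 1177 for the interaction, with 3 to 5 *Wfdc* genes positive in the interaction and the other *Wfdc* counts as reported. Signs changed for *Wfdc13* in the caput (-0.11 without WT replicate 2, -0.33 without ArKI replicate 2, range -0.33 to 0.57) and *Wfdc6b* in the testis (-0.0151 and -0.0318 without WT or ArKI replicate 1, range -0.0318 to 0.13). In the interaction they changed for *Wfdc9* (0.0737 without IS ArKI replicate 2, range -0.37 to 0.0737) and *Wfdc13* (0.79 without IS ArKI replicate 5, range -1.61 to 0.79). None of these was called, and the cause was not tested.

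The replicate numbers were tried as a block. Same-numbered samples had correlations of deviations from -0.188 to 0.201, which did not meet the limit set for pairing, and whether a number marks one mouse is not stated. Between WT IS and WT caput, 3 of 5 samples correlated best with their own number. With the replicate block 557, 656, 136, 2881 and 1142 genes were called in the IS, caput, testis, WT segments and interaction, and the interaction of *Wfdc2* was 1.13 (adjusted p = 0.0532 by edgeR). *Wfdc13* in the IS and 5 genes in the testis did not pass the count filter.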
